A study of Mus musculus with 7 samples.

Results

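Mouse embryonic fibroblasts given Gata4, Tbx5 and isoform 6 of Mef2c were compared with fibroblasts given Gata4, Tbx5 and isoform 1, across all 19505 genes named on the array, which are also all the named genes of the series. The arrays are called GT/M6 and GT/M1, and they are 2 of 7 in the series. Both groups carried the same pair of companion factors by retrovirus, had their medium replaced 24 h after infection and were collected at 1 week, so the labels differ only in the Mef2c isoform. The further arrays used as context were untreated fibroblasts (MEF, with no time of harvest of their own), Gata4 and Tbx5 with isoform 2 (GT/M2), the same with isoform 2 carrying the activation domain of MyoD (GT/M2TAD), and cells with control siRNA (siCtrl) or siRNA against Ep300 (siEp300). The titles of the siRNA samples name isoform 2, whereas their source names give the MyoD fusion. No array carried virus without the factors, and neither the fibroblasts' strain nor the share of cells that took up all 3 viruses is stated in the labels.

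Mef2c is a transcription factor of the MADS box family that binds A/T-rich elements in muscle genes, and alternative splicing yields several isoforms that share its DNA-binding part. With Gata4, a zinc finger factor, and Tbx5, a T-box factor, it can direct fibroblasts towards a cardiac muscle program without a stem cell stage. Cells on that path switch on sarcomere, calcium handling and natriuretic peptide genes while fibroblast matrix genes and cell division decline.

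Each group was a single array, so there was no spread between replicates, no test and no p-value, and all differences below are between these 2 arrays. Signals are on the log2 scale, where a difference of 1 is 2-fold. Differences are GT/M6 minus GT/M1 unless stated. A gene counted as at least 2-fold apart when its difference reached 1 and its higher signal reached the median of named genes on that array, 5.71 on GT/M6 and 5.68 on GT/M1. Signals were read against negative-control probes. Their 95th percentile was 9.14 on GT/M6 and 9.33 on GT/M1, and a gene above that level is called above background below. In these bulk samples, fewer cells of a type and less RNA per cell cannot be told apart.

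The labels were examined first. The Mef2c signal was 18.50 on GT/M1 and 18.69 on GT/M6 against 8.24 on MEF, and that of Tbx5 was 16.19 and 16.22 against 5.72. Both factors were thus at similar levels on the arrays compared. The probe set for Mef2c gives 1 signal and does not separate the isoforms. Gata4 stood at 5.09 on GT/M1, 4.63 on GT/M6 and 4.22 on MEF, below background on all 3, and whether its probes cover the transduced sequence is not known. Of 13 cardiomyocyte markers, 7 were above background on GT/M1 and 8 on GT/M6. Of 13 fibroblast markers, 7 and 10 were. Of 23 skeletal muscle markers, only Acta1, skeletal alpha-actin, was above background on either array, at 10.19 and 9.96, and Myod1, the source of the fused domain on GT/M2TAD, was at 2.94 and 2.97.

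The arrays differed at few genes. The median difference was 0.0073, 84.2% of genes lay within 0.5 of each other, and the correlation of signals across genes, which are not independent replicates, was 0.994. At least 2-fold apart were 183 genes (0.938%), with GT/M6 the higher array for 126 (0.646%) and the lower one for 57 (0.292%). Of these 183, 42 were above background on both arrays, 31 on 1 array and 110 on neither. Genes above background on both arrays varied less, with a standard deviation of the difference of 0.30 over 4569 genes. Of the negative-control probes that reached the same floor, 26.8% were at least 2-fold apart, so differences of this size were common among low signals of single control probes, which are not summarised over several probes as genes are. Low signals were therefore also read with each signal below its array's negative-control median set to that median. A gene below both medians then differs by -0.14, the gap between them, which also became the median of all genes.

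**Figure D1:**
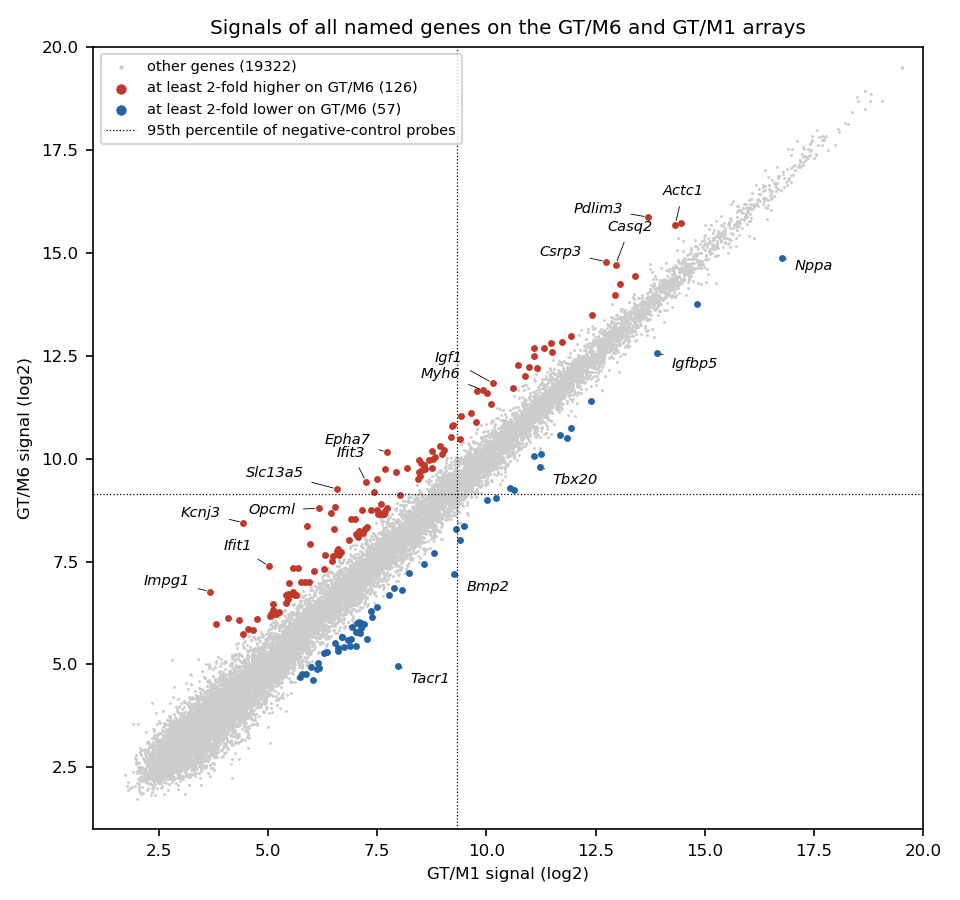
Signals of 19505 named genes (log2), GT/M1 on the horizontal axis and GT/M6 on the vertical axis, with 126 genes at least 2-fold higher on GT/M6 in red, 57 lower in blue and the others in grey. Dotted lines mark each array's background level, 9.33 on GT/M1 and 9.14 on GT/M6, and 110 of the coloured genes lie below both lines.

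The furthest gene was Kcnj3, which encodes a subunit of the G protein-gated inward rectifier potassium channel that slows atrial and pacemaker cells. Its signal was 8.44 on GT/M6 and 4.44 on GT/M1, a difference of 4.01. It lay between 3.31 and 4.12 on the other 5 arrays, so the signal was high on GT/M6 and on no other array, although it stayed below background there. Kcnj5, which encodes the channel's partner subunit in atrial muscle, was at 9.39 on GT/M6 and 10.01 on GT/M1, a difference of -0.62. Of the 22 measured potassium and pacemaker channel genes, 7 reached the floor. Kcnj3 was the only member at least 2-fold apart, and the list median was 0.038.

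Sarcomere genes that counted as 2-fold apart were all higher on GT/M6. Among Z-disc genes the lowest difference was -1.19, in a gene that missed the floor. Over the 4 lists of sarcomere genes, 8 of 71 members (11.3%) were higher and 0 lower, with a median of 0.24, whereas 0.646% of all genes were higher. Of the members above background on both arrays, 4 of 25 were higher, as were 30 of all 4569 such genes. The median was not stable: with low signals set to the negative-control median it was -0.14, the same as over all genes, as 28 of the 71 members lay below both control medians. Over the 27 members above background on either array it was 0.15. The other members did not count as 2-fold apart. Among them, Tnnt2, the troponin that anchors the thin filament's calcium switch, was at 17.40 on GT/M1 and 17.38 on GT/M6. Myl7, the atrial regulatory light chain, was at 16.03 and 16.18.

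Among myosins, Myh6, the fast cardiac heavy chain that is the main form of the adult mouse heart, had a signal of 9.92 on GT/M1 and 11.66 on GT/M6. The difference was 1.74, or 3.34-fold, and MEF lay far lower at 4.75. Myh7, the slow cardiac heavy chain, was at 5.69 and 7.33, a difference of 1.65 with both signals below background. Of 18 myosin and myosin-binding genes these were the 2 that were higher. The list median was 0.39, but -0.04 with low signals set to the negative-control median. Myl4, the atrial essential light chain, stood at 17.02 on GT/M1 and 16.89 on GT/M6.

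In the thin filament list, 2 of 18 members were higher. Actc1, cardiac alpha-actin, was at 14.32 on GT/M1 and 15.69 on GT/M6, 2.58-fold higher, and at 8.97 on MEF. Tmod1, which caps the pointed ends of actin filaments, was at 7.52 and 8.65, both below background. Titin, Ttn, the giant spring that spans from Z-disc to M-band, was at 9.21 on GT/M1 and 10.80 on GT/M6, a difference of 1.59. It was at 10.93 on GT/M2 and 6.36 on MEF.

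Z-disc genes held 3 members at least 4-fold higher among 24 measured. Csrp3, a muscle LIM protein, was at 12.75 on GT/M1 and 14.78 on GT/M6, a difference of 2.03. Pdlim3, an alpha-actinin-binding protein, was at 13.71 and 15.87, a difference of 2.16. Both were above background on both arrays, and on MEF they were at 3.50 and 5.68. Myoz2, which binds calcineurin at the Z-disc, was at 7.68 and 9.75, a difference of 2.07, and above background on GT/M6 only. On GT/M2 these genes stood at 16.76 (Csrp3), 16.06 (Pdlim3) and 12.86 (Myoz2), in each case above GT/M6. Among members above background, the one furthest below on GT/M6 was Ldb3, which encodes another alpha-actinin partner, at 12.62 on GT/M1 and 12.16 on GT/M6.

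The promoters of Myoz2 and Ttn are shown because they were the 2 sarcomere genes 2-fold apart that held a loose MEF2 pattern. It was searched on both strands as CTA, any 4 bases, then TAG, and reads alike on either. The 4 middle bases could be G or C, so the counts below are not counts of A/T-rich MEF2 elements. Each window holds the 250 bases before the start of transcription in RefSeq, assembly GRCm38.p6, written 5′ to 3′ on the gene's strand, with the match in capitals. Myoz2 is at chr3:123034988-123035237 on the minus strand with its match at -33 from the start, and Ttn at chr2:76982548-76982797 on the minus strand with its match at -166.
Myoz2: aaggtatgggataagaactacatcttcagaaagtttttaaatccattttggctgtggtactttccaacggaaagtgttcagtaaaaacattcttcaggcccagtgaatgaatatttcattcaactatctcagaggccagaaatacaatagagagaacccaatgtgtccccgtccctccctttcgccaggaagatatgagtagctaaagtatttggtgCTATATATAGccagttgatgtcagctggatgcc
Ttn: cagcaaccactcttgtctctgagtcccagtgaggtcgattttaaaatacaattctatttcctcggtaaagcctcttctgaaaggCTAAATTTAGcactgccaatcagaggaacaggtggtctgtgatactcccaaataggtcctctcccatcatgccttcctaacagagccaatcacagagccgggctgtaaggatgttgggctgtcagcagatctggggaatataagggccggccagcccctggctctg
Of 69 genes of the sarcomere and sarcoplasmic reticulum lists with such a window, 11 (15.9%) held the pattern, against 3.7% of all 27025 genes with a window. Of the genes higher on GT/M6 it was held by 4 of 93 (4.3%), namely Esrrg, Gabrb2, Myoz2 and Ttn, and of the genes lower on GT/M6 by 2 of 44 (4.55%). A match is a run of letters and was not shown to be a bound site.

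Among calcium handling genes 1 was 2-fold apart. Casq2, calsequestrin, which stores calcium in the sarcoplasmic reticulum, was at 12.96 on GT/M1 and 14.71 on GT/M6, 3.38-fold higher. It was at 12.62 on GT/M2 and 4.94 on MEF, so GT/M6 was the highest of the 4. Sln, sarcolipin, an inhibitor of the calcium pump, was at 13.65 on GT/M1 and 13.09 on GT/M6 against 7.67 on GT/M2. The list of 18 genes had 1 member higher, 0 lower and a median of -0.0008, with differences from -0.77 to 1.76. Of 11 calcium and sodium entry genes none was 2-fold apart. The furthest, Rrad, a small GTPase that restrains calcium channels, was at 12.33 and 13.16.

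Natriuretic peptide genes went the other way. Nppa, atrial natriuretic peptide, was at 16.77 on GT/M1 and 14.88 on GT/M6, a difference of -1.89 or 3.71-fold, and was the gene above background on both arrays that was furthest below. Nppb, the B-type peptide and its neighbour on the chromosome, was at 7.13 and 5.88, a difference of -1.24 with both signals below background. Corin, the protease that processes the atrial peptide, differed by -0.03. Of 9 genes of this list 2 were lower and 0 higher, with a median of -0.30. On GT/M2 Nppa was at 16.10, and on MEF at 5.09.

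Of 35 cardiac transcription factors, 1 counted as 2-fold apart, and the highest difference, 2.30, was in a gene that missed the floor. Tbx20, a T-box factor of the heart, was at 11.23 on GT/M1 and 9.80 on GT/M6, a difference of -1.43. It was at 9.90 on GT/M2, beside GT/M6, and at 3.98 on MEF. Zfpm1, a cofactor of Gata factors that was in no list, was lower too, at 11.25 and 10.12. The list median was 0.048. Among Bmp pathway genes, Bmp2, a ligand, was at 9.25 on GT/M1 and 7.20 on GT/M6, a difference of -2.06 with both signals below background. Id2, a gene induced by Bmp signals, was at 11.21 and 10.23, a difference of -0.99 that did not reach 2-fold. In the same list Ltbp1 went the other way, at 11.17 and 12.13, a difference of 0.96 that also fell short. Of 46 Bmp and Tgf-beta genes, 1 was lower and 0 higher, and 26 had a difference above 0. The list median was 0.11, but -0.07 with low signals set to the negative-control median.

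**Figure D2:**
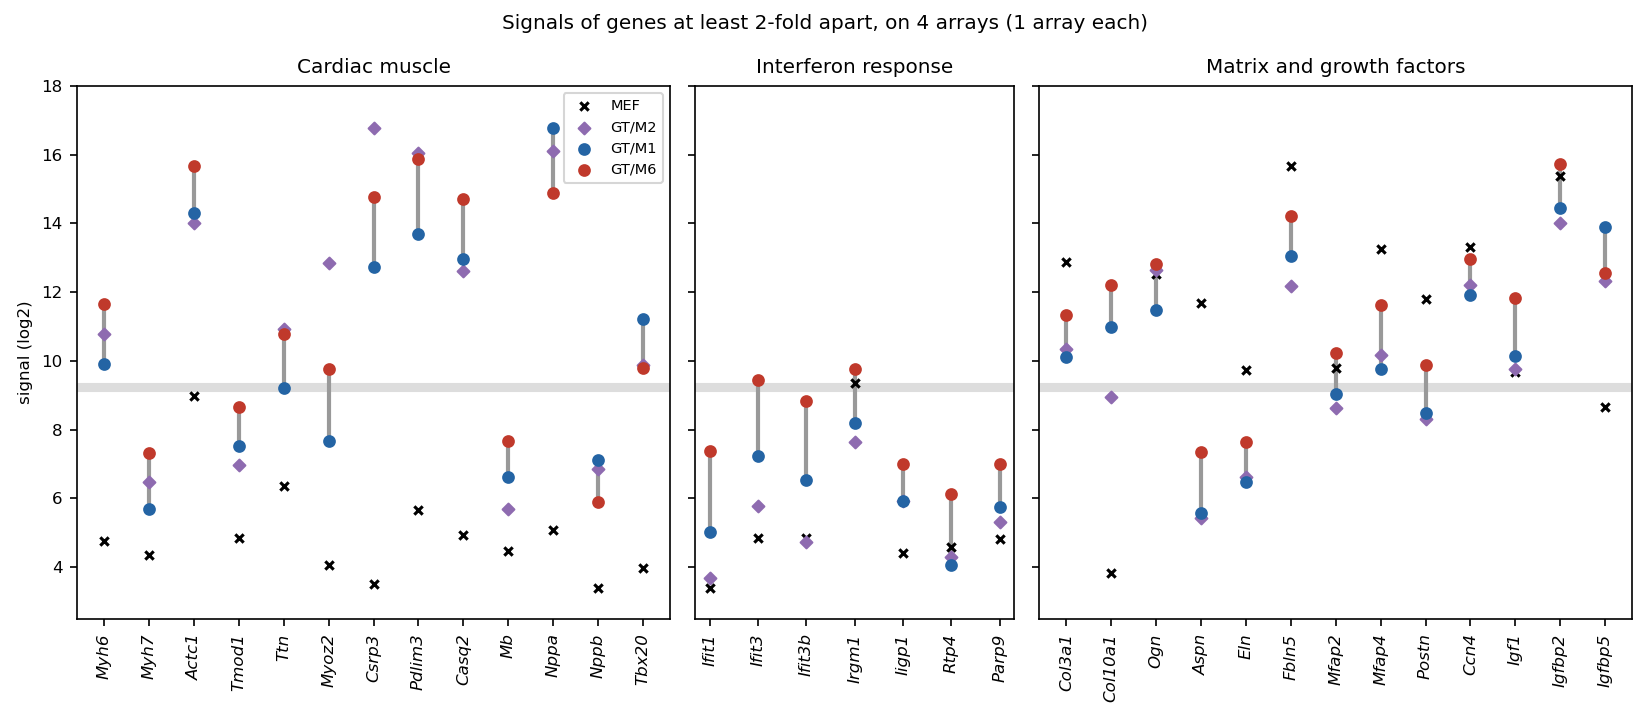
Signals (log2) of genes of the cardiac, interferon and matrix lists at least 2-fold apart, with GT/M1 in blue, GT/M6 in red, GT/M2 as diamonds and MEF as crosses, 1 array each, and the grey band spanning the 2 background levels (9.14 to 9.33). The interferon genes lie at or below the band on most arrays, and in the cardiac panel Nppa, Nppb and Tbx20 are the genes with GT/M1 above GT/M6.

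Interferon response genes also had several members apart. These genes are switched on when interferon receptors activate Stat factors, and many block the growth of viruses. Of 52 measured members, 7 (13.5%) were higher on GT/M6 and 0 lower, against 0.646% higher and 0.292% lower of all genes. The list median was 0.36, and 41 members had a difference above 0, as had 9943 of all 19505 genes. Ifit1, which binds foreign RNA, was at 5.03 on GT/M1 and 7.38 on GT/M6, a difference of 2.35. Ifit3b was at 6.54 and 8.82, a difference of 2.29, and Ifit3 at 7.25 and 9.44, a difference of 2.19. Ifit3 crossed background on GT/M6, whereas Ifit1 and Ifit3b lay below it on both arrays. On MEF these 3 genes were at 3.39, 4.86 and 4.85, and on GT/M2 at 3.68, 4.73 and 5.78, so GT/M6 was the highest of the 4 arrays for each.

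The other 4 members were Irgm1, an interferon-induced GTPase, at 8.19 and 9.77, Rtp4 at 4.08 and 6.14 (0.77 apart with low signals set to the negative-control median), Parp9 at 5.76 and 6.99, and the GTPase gene Iigp1 at 5.93 and 7.00. The last 3 were below background on both arrays. The 10 members above background on either array had a median of 0.34 and ranged from Ifi27 at -0.34 to Ifit3. Stat2, a factor that carries the interferon signal, was at 9.97 and 10.66. Setting low signals to the negative-control median gave a list median of 0.13, where that of all genes was -0.14. Of 26 genes for interferons, their receptors and RNA or DNA sensors none was 2-fold apart. The receptor gene Ifnar1 was at 11.73 and 11.91, and the interferon gene Ifnb1 at 3.94 and 4.50, below background. Antigen presentation genes, which interferon also induces, had 0 of 17 members 2-fold apart and a median of 0.17, or -0.14 with low signals set to the negative-control median, with the class I gene H2-K1 at 9.49 and 10.00.

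The promoters of the 3 Ifit genes are shown because these genes were higher together and each held the interferon-stimulated response element, searched on both strands as GAAA, any 2 bases, then GAAA, in 2 places. Capitals mark the matches, which lie on the strand opposite to the gene and start at -104 and -85 from the start of transcription in Ifit1 (chr19:34640639-34640888, plus strand), at -156 and -122 in Ifit3 (chr19:34583279-34583528, plus strand) and at -188 and -154 in Ifit3b (chr19:34607707-34607956, plus strand), each 250 bases from RefSeq, GRCm38.p6.
Ifit1: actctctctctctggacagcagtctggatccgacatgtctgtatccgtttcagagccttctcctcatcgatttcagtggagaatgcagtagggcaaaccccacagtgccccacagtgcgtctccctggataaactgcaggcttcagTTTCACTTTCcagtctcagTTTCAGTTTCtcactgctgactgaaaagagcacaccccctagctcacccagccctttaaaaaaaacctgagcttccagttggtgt
Ifit3: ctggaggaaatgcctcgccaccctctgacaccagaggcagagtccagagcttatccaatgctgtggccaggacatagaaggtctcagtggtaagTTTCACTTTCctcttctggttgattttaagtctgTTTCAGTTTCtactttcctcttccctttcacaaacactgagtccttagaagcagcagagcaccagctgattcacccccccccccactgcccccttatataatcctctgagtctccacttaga
Ifit3b: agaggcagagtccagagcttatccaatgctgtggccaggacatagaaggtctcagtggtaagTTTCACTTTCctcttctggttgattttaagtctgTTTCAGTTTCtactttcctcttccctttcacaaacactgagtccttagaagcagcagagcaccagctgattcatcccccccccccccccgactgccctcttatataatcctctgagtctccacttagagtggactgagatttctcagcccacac
Ifit3 and Ifit3b are close paralogs, so their probes may share transcripts and their signals are uncertain as separate measurements. Of the 7 interferon genes 2-fold apart, 4 had a window and all 4 held the element, as did 18 of 38 list members (47.4%) and 3.46% of all genes with a window. Beyond the interferon list, Mfap2 was the single gene among those higher on GT/M6 that held it.

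Matrix genes that differed were also higher on GT/M6. Against 0.646% of all genes, 10 of the 81 collagen and matrix protein genes (12.3%) were higher, and 0 were lower. Their median was 0.21, but -0.02 with low signals set to the negative-control median, and 0.58 over the 27 members above background on either array. Fibroblast markers had a median of 0.50 with 2 of 13 higher, Col3a1 and Postn, both already counted among the matrix genes, as 6 of the 13 markers are matrix list members. Their summed signal was lower on GT/M6, at 18.70 against 18.85 on GT/M1 on the log2 scale. The part of fibroblast content in the matrix result was not tested.

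Collagen III, Col3a1, a fibrillar collagen of soft tissue, was at 10.10 on GT/M1 and 11.33 on GT/M6. Col10a1, a collagen of cartilage growth zones, was at 10.98 and 12.22, with GT/M2 at 8.95 and MEF at 3.85. The main fibrillar chains Col1a1, at 12.88 and 13.75, and Col1a2, at 12.12 and 13.01, did not reach 2-fold. Of 41 collagen genes 30 had a difference above 0, as had 9943 of all 19505 genes. The list median of 0.23 became -0.09 with low signals set to the negative-control median.

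Of 40 proteoglycan and matricellular genes, 8 were higher. Mfap4, a microfibril-associated protein, was at 9.77 and 11.64, a difference of 1.87. Ogn, a small leucine-rich proteoglycan, was at 11.48 and 12.82, Fbln5, an elastic fibre protein, at 13.05 and 14.23, and Ccn4, a matricellular protein, at 11.93 and 12.97. Each of these 4 was above background on both arrays, and Ccn4 fell to 0.99, short of 2-fold, after quantile normalization. Postn, periostin, a protein of activated fibroblasts, was at 8.49 and 9.89, Mfap2 at 9.04 and 10.22, elastin, Eln, at 6.48 and 7.64, and Aspn, asporin, at 5.58 and 7.34. Eln and Aspn lay below background on both arrays. On MEF, Mfap4 was at 13.26, Fbln5 at 15.67, Ccn4 at 13.30, Postn at 11.80, Eln at 9.75 and Aspn at 11.68, in each case above GT/M6. Ogn, at 12.53 on MEF, and Mfap2, at 9.78, were below GT/M6. Decorin, Dcn, a proteoglycan that binds collagen, went the other way, at 15.24 on GT/M1 and 14.27 on GT/M6, and at 8.54 on MEF. The list median was 0.053, and was -0.0066 after quantile normalization, so no direction is given for the list as a whole.

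Growth factor genes of the insulin-like family were split. Igf1, the ligand, was at 10.15 on GT/M1 and 11.83 on GT/M6, 3.21-fold higher, and the binding protein gene Igfbp2 was at 14.45 and 15.73. Igfbp5, another binding protein, was at 13.90 and 12.57, a difference of -1.33. All 3 were above background on both arrays, and on GT/M2 they stood at 9.76, 14.01 and 12.31. Among matrix proteases, Adamts12, at 8.94 and 10.30, and Adamts1, at 6.99 and 8.54, were higher, and Mmp12, a macrophage elastase, was lower at 7.89 and 6.84. Adamts1 and Mmp12 lay below background on both arrays, as did Dkk2, named next. Among Wnt pathway genes 3 of 46 were higher, the secreted activator Rspo3 at 8.53 and 9.71, the inhibitor Dkk2 at 6.52 and 8.30, and the receptor Ror1 at 8.76 and 9.78, the last short of 2-fold under each of the 3 other scalings.

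Genes outside the lists were prominent among those furthest apart. Higher on GT/M6 were Impg1, a proteoglycan gene of the retina, at 3.68 and 6.77 (1.4 apart with low signals set to the negative-control median), the citrate transporter gene Slc13a5 at 6.58 and 9.26, the ephrin receptor gene Epha7 at 7.73 and 10.15, the calsyntenin gene Clstn2 at 6.43 and 8.68, and Rgs2, a brake on G protein signalling, at 3.81 and 5.99 (0.62 apart with low signals set to the negative-control median). The IgLON adhesion genes Opcml and Ntm lie side by side on the chromosome and were both higher, Opcml at 6.16 and 8.79 and Ntm at 5.90 and 8.36. Of these 7 genes, Slc13a5 and Epha7 were above background, on GT/M6 only. Among 19502 genes placed on chromosomes, 6 pairs of direct neighbours were apart in the same direction, the others being Nppb with Nppa, Ccn4 with Ndrg1, Impg1 with Htr1b, Mbnl3 with Hs6st2 and Slc13a4 with Fam180a.

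Above background on both arrays, further genes higher on GT/M6 were Olfml2b at 9.41 and 11.04, Fgl2, a fibrinogen-like protein, at 11.10 and 12.69, the serotonin receptor gene Htr1b at 10.02 and 11.58, Dipk2a at 10.73 and 12.29, the ectonucleotidase gene Nt5e at 9.64 and 11.10, the prolyl hydroxylase gene Egln3 at 11.10 and 12.49, and Selenom at 11.32 and 12.68. Lower were Baalc at 10.63 and 9.25, Stc2, a stanniocalcin, at 11.83 and 10.49, the aminopeptidase gene Anpep at 10.54 and 9.29, Fam180a at 11.94 and 10.74, Lingo1 at 11.69 and 10.58, Papss2, which makes the sulfate donor for proteoglycans, at 14.81 and 13.76, Adamtsl3 at 11.09 and 10.07, and Sirpa at 12.40 and 11.39. Cd93, at 12.04 and 11.04, fell just short of 2-fold. These differences lay between 1.36 and 1.63 for the higher genes and between -1.38 and -1.01 for the lower genes that counted.

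The gene lowest on GT/M6 was Tacr1, which encodes the receptor for substance P, at 7.97 on GT/M1 and 4.95 on GT/M6, a difference of -3.02. It lay between 3.19 and 4.95 on the 6 arrays other than GT/M1, so GT/M1 alone was high, and it was below background throughout. In the list of 28 receptor genes, of which 22 were measured, Npy1r, a neuropeptide Y receptor gene, was higher at 4.33 and 6.07, also below background, and was 0.70 apart with low signals set to the negative-control median. Other low genes below background on both arrays were Tcp11x2 at 7.27 and 5.61, Lilrb4a at 7.00 and 5.45, Asb11 at 6.88 and 5.44, Gsta2 at 7.11 and 5.76 and Phlda2 at 6.89 and 5.61. Clmn, at 9.40 and 8.02, was above background on GT/M1 only.

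Several groups had few or no genes 2-fold apart. Oxidative phosphorylation genes, of which 50 of 57 were above background on GT/M1, all lay between -0.37 and 0.51, with a median of 0.089. Of 48 cell cycle genes none was 2-fold apart, but 15 had a difference above 0, against 9943 of all 19505 genes. The median was -0.14, and -0.21 over the 10 members above background on either array. The furthest above background were E2f8, a repressor of E2F targets, at 13.04 and 12.10, and the ribonucleotide reductase gene Rrm1 at 11.63 and 12.30. None of 27 Cdk inhibitor and p53 target genes, 26 immediate early genes, 13 connexin and desmosome genes, 33 Hox genes or 26 acetyltransferase and deacetylase genes was 2-fold apart, and Ep300 was at 9.96 and 10.22. Only 7 of the 33 Hox genes reached the floor and 24 lay below both control medians, so most could not count as apart. Of 32 fatty acid genes, the nuclear receptor gene Esrrg was higher at 6.05 and 7.26, and of 26 creatine, glycogen and oxygen supply genes Cox6a2, a muscle subunit of cytochrome oxidase, at 5.47 and 6.99, and myoglobin, Mb, at 6.63 and 7.66, all below background.

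Macrophage markers had a median of -0.52, with 16 of 19 lower by any amount and Fcer1g 2-fold lower at 6.04 and 4.62 (-0.80 with low signals set to the negative-control median). None was above background on either array, their summed signal was 10.14 on GT/M1 and 9.57 on GT/M6, and 12 of the 19 lay below both control medians, so that with low signals set there the list median was -0.14, that of all genes. Smooth muscle markers had a median of 0.31 and 1 of 16 higher, Actg2, an enteric actin, at 11.50 and 12.60. Endothelial markers had 1 of 14 higher, the receptor gene Flt1, at 11.72 and 12.84, which was also the only one above background. Of epithelial and mesothelial markers, Krt19, a keratin, was lower at 10.22 and 9.05, above background on GT/M1 only. Msln, mesothelin, was higher at 6.91 and 8.53, below background on both arrays. Of neural markers Nefm was lower at 6.75 and 5.42, both below background, and of adipocyte and cartilage markers Col10a1 was higher. Of the chemokine and cytokine list Ccl17 was higher, at 6.59 and 7.76, both below background.

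**Figure D3:**
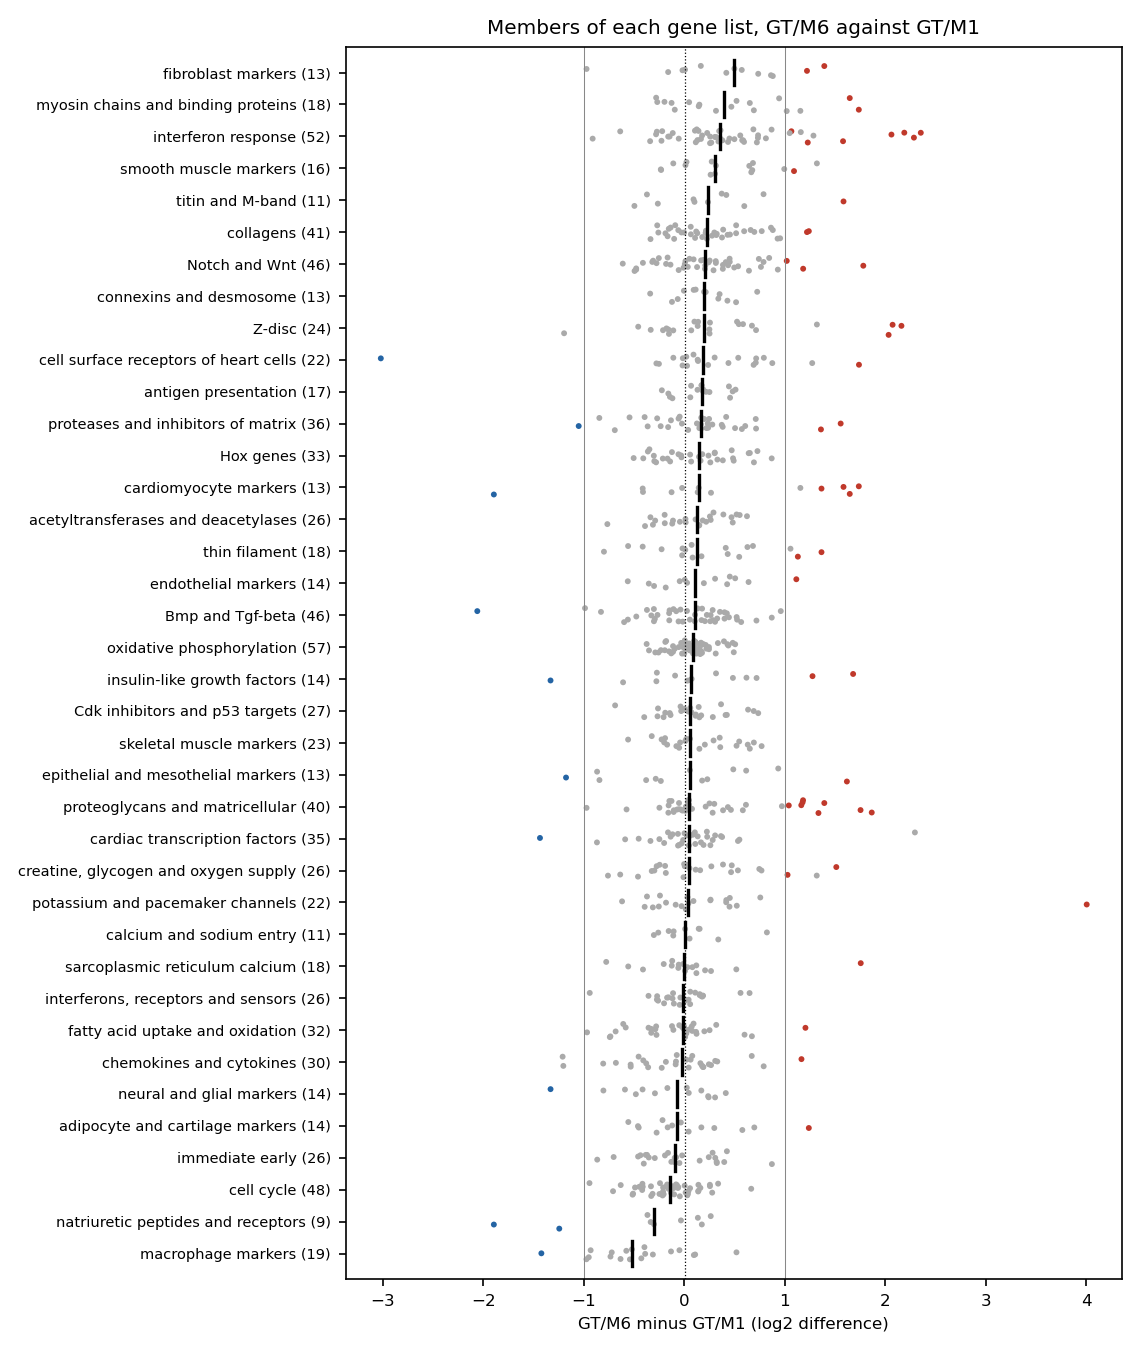
Each point is 1 measured gene of the list named on the left (number of genes in brackets), placed by its log2 difference, GT/M6 minus GT/M1, with points spread vertically for legibility only. Black bars are list medians, from -0.52 for macrophage markers to 0.50 for fibroblast markers, red and blue points are genes at least 2-fold higher or lower that reached the floor, and the dotted line is the median of all genes, 0.0073.

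The genes apart between GT/M6 and GT/M1 were then read on pairs of arrays that share neither of them. Between GT/M2TAD and GT/M2, 6.3% of all genes were 2-fold apart, 2.96% higher and 3.33% lower. Of the 126 genes higher on GT/M6, 33 (26.2%) were higher on GT/M2TAD and 17 (13.5%) lower. Of the 57 genes lower on GT/M6, 3 (5.26%) were higher and 17 (29.8%) lower. Pdlim3, Casq2, Igf1, Fbln5 and Postn were higher in both pairs, whereas Myh6, Myh7, Myoz2 and Ttn were higher on GT/M6 but lower on GT/M2TAD. Tbx20 and Igfbp5 were lower in both.

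Between siEp300 and siCtrl, 2.32% of all genes were 2-fold apart, 1.93% higher and 0.39% lower. Of the 126 genes 11 (8.73%) were higher, among them Ifit1, Ifit3, Ifit3b, Rtp4, Mb and Myh6, and 1 (0.794%), Npy1r, lower. Of the 57 genes lower on GT/M6, 8 were higher on siEp300, among them Nppb and Bmp2, and 0 lower. With each array centred on its median, 5 were higher and 1 lower. The interferon list had a median of 0.59 on siEp300 against siCtrl, where the median of all genes was 0.14. Of the 30 genes higher on GT/M6 that were above background there and on GT/M1, 1 (3.33%), Myh6, was higher on siEp300, against 1.55% of all genes above background on both. Of the 12 such genes lower on GT/M6, 3 were higher on siEp300, Anpep, Baalc and Fam180a, and 0 lower.

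**Figure D4:**
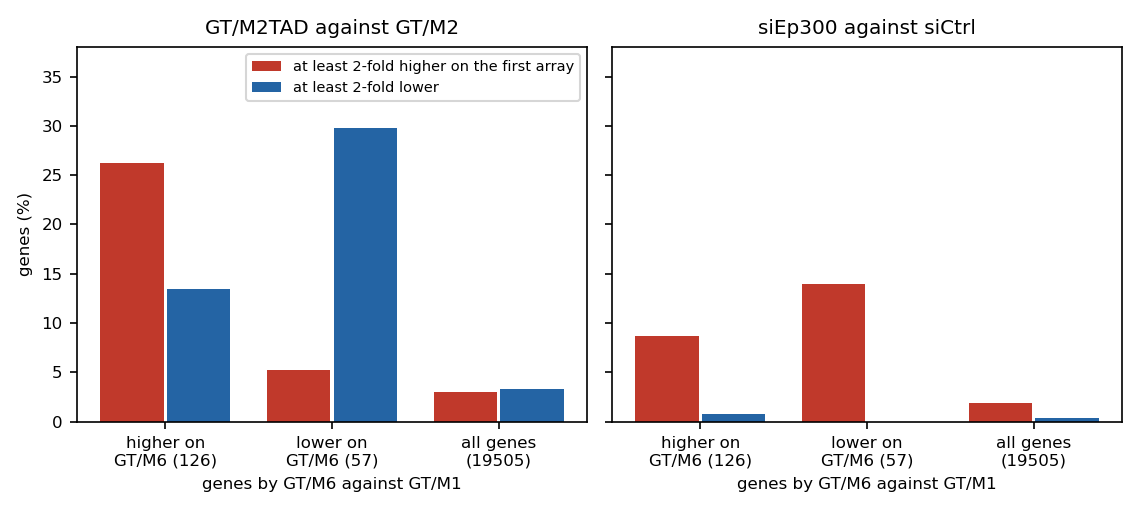
Percent of genes at least 2-fold higher (red) or lower (blue) on the first array of each pair, for the 126 genes higher on GT/M6 than GT/M1, the 57 lower and all 19505 genes, 1 array each with no error. For GT/M2TAD against GT/M2 the bars reach 26.2% and 29.8% against 2.96% and 3.33% of all genes, and for siEp300 against siCtrl 11 of the 126 and 8 of the 57 genes were higher, against 1.93% of all genes.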

How the data were processed

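Total RNA (RNA integrity number above 7 per the labels) was measured on the Affymetrix Clariom S mouse array. The authors' deposited values are log2 signals after SST-RMA in Affymetrix Expression Console 1.4, per the submitters' processing notes and the series text; settings and genome build are not given in the sources used here. SST-RMA stretches the signal scale, and summarizing each gene hides isoforms. Of 28846 probe sets, 19572 had 1 gene symbol, 0 had several and 9274 had none, giving 19505 genes, all matched by Entrez identifier to RefSeq (GRCm38.p6, used for names, neighbours and promoters). For 55 genes with several sets, the set with the highest mean was used. Precision is limited by the number of arrays, 1 in each group. Python 3.11.15 with pandas 2.3.3 gave differences, counts and medians. Only the counting rule was run on simulated data, with shifts well above its threshold, which checks the code and not the noise of these arrays.

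The comparison, its 38 gene lists (995 genes, 927 measured) and the pathways described were chosen with earlier results of these data known. Named genes were the 15 highest and 15 lowest differences at the floor and among genes above background on both arrays, list members 2-fold apart or furthest apart among those above background, and the transduced factors, Myod1 and Ep300. Tnnt2, Myl7, Col1a1, Col1a2, Stat2, Ifnb1, Gabrb2 and the neighbours Ndrg1, Mbnl3, Hs6st2 and Slc13a4 were chosen after their values were seen. Alternatives covered scaling, floor, background, fold and probe-set choice.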

Additional observations from a re-analysis of the deposited data

Results flagged for a closer look

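The 2634 transcript probe sets without a gene symbol entered no comparison above. By the same rule of size 11 of them (0.418%) were higher on GT/M6 and 19 (0.721%) lower, with differences from -2.32 to 1.87, and 13 of those apart lay above background on both arrays.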

How the results depend on the processing

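No paired analysis was possible because each group had 1 array, and leaving out a replicate could not be run for the same reason. Of the 126 higher and 57 lower genes, 113 and 57 were kept under all of median centring, quantile normalization and level-dependent centring, and 113 and 49 with signals below the negative-control median set to it. The counts depended on floor and fold: with no floor 192 were higher and 163 lower, with the floor at the negative-control percentile 57 and 16, at 1.5-fold 595 and 327, and at 4-fold 16 and 2. On siEp300 against siCtrl, median centring left 5 in place of 8 of the lower genes higher and gave 1 lower, and 2 of the higher genes lower. At 1.5-fold, 23 of the higher genes were higher there and 4 lower, and 3 of the lower genes lower. On GT/M2TAD against GT/M2 at 1.5-fold, 5 of the lower genes were higher and 27 lower. Of 536 values of named genes under these 4 alternatives, 518 kept their side of the threshold, 10 lost it (Ccn4, Mb, Ror1, Fcer1g, Npy1r, Rgs2 and Rtp4), 8 gained it (Cd93, Dcn and Id2) and 0 changed sign among genes 2-fold apart. Medians of 4 lists near 0 changed sign with scaling: sarcoplasmic reticulum, calcium and sodium entry, chemokine and proteoglycan genes. With low signals set to the negative-control median, the medians of 20 of 38 lists turned from above to below 0 and 19 equalled -0.14, the value that a gene below both control medians takes by construction and the median of all genes under that setting. Over all alternatives 66 of 265 list medians moved by 0.1 or more. Signals near background limit 110 of the 183 genes, and the absence of replicates limits all of them.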
